A study of Homo sapiens with 12 samples.

Results

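The genes described here are 40 genes of glycolysis and of the response to low oxygen, chosen by symbol and measured on Illumina expression arrays, each by its brightest probe. Of the 40, 37 had a probe named for them, 35 passed a filter on dim probes and were tested among 11564 genes, and 30 of those 35 were above background on all 12 arrays. EGLN3 and PDK1 were below background on all 12 arrays and were not tested. The expression of SLC16A1, SLC16A3 and CA9 was not analysed here. The 12 arrays carried RNA of samples labelled SKBR-3, a human breast cancer cell line known for amplified ERBB2, in 6 groups of 2. Untreated cells were set beside cells given 1 µM Y15 or 1 µM PF04554878 (defactinib), both inhibitors of focal adhesion kinase (FAK), 5 µM lapatinib, an inhibitor of the EGFR and ERBB2 kinases, or 5 µM lapatinib together with 1 µM of either FAK inhibitor, all for 24 hours per the series' design text. All groups come from 1 labelled line, no vehicle is named for the untreated cells, and no label ties the replicates to different cultures. All p-values therefore rest on a spread between samples that may be technical. The protocol for RNA extraction mentions frozen tissue, which goes against the cell line in the labels.

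Glycolysis splits glucose into pyruvate in the cytosol. Glucose enters through transporters such as SLC2A1 (GLUT1), is trapped by hexokinases, and passes through phosphofructokinase, the main point of control, and the lower enzymes to pyruvate, which lactate dehydrogenase turns into lactate or mitochondria oxidise. When oxygen is scarce, the hypoxia-inducible factors HIF1A and EPAS1 (HIF-2α) escape prolyl hydroxylation by EGLN enzymes and switch on many of these genes together with angiogenic and stress genes. Growth factor signalling through PI3K and AKT also raises glucose uptake in many tumours, and ERBB2 acts upstream of it.

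The arrays did not divide by the labels alone. Replicates of a group correlated across the genes tested with r from 0.987 to 0.995. The untreated and Y15 arrays correlated with mean r 0.986, those labelled lapatinib with those labelled Y15 plus lapatinib at 0.985, and those labelled PF04554878 with those labelled PF04554878 plus lapatinib at 0.985, while every other pair of groups lay between 0.875 and 0.937. These values across genes, which are no independent replicates, only describe the arrays. ESR1, the oestrogen receptor that SKBR-3 is known to lack, exceeded background in every sample, at group means of 9.85 (lapatinib) to 10.44 (Y15 plus lapatinib). ERBB2 had group means of 8.34 (Y15 plus lapatinib) to 9.35 (untreated). GRB7, STARD3, PGAP3 and MIEN1, the other genes listed as markers of this line, had group means from 6.83 (MIEN1) to 8.07 (GRB7), both with Y15. Groups are therefore named as their labels give them, and every direction below is that between arrays so labelled. What separates the 3 pairs of groups cannot be told apart from the drugs in any comparison that crosses them. Only Y15 against untreated, Y15 plus lapatinib against lapatinib, and PF04554878 plus lapatinib against PF04554878 lie within a pair.

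Of 9 luminal epithelial markers 8 were above background on all 12 arrays and TFF1, an oestrogen-responsive gene, on 8. TFF1 lay below background in both lapatinib groups without PF04554878, at means of 6.48 and, with Y15, 6.63, against 12.63 untreated, 13.50 with Y15, 13.65 with PF04554878 and 13.73 with PF04554878 plus lapatinib. The luminal sum of linear intensities, which includes TFF1, was 31217 to 33792 untreated, 37201 to 39757 with Y15, 27442 to 27530 with lapatinib, 23871 to 25860 with both, 50378 to 51389 with PF04554878 and 51852 to 52221 with it plus lapatinib. Of markers of other cells, 1 of 8 adipocyte, 1 of 6 endothelial, 1 of 4 leukocyte, 3 of 9 fibroblast, 2 of 4 erythroid and 2 of 4 basal epithelial genes with a probe passed the filter. The erythroid sum, carried by HBA1 and HBA2, was 2281 to 3298 untreated and 2570 to 2923 with Y15, against 435 to 472 with lapatinib, 446 to 460 with both Y15 and lapatinib, 506 to 533 with PF04554878 and 487 to 509 with it plus lapatinib, while HBB and ALAS2 were below background on all 12 arrays. The basal sum was 629 to 755 untreated, 816 to 843 with Y15, 1176 to 1251 with lapatinib and 999 to 1023 with both. It was 1051 to 1123 with PF04554878 and 1140 to 1162 with it plus lapatinib. KRT5 and KRT14 were below background on all 12 arrays. ACTA2 averaged 7.12 untreated, 7.27 with Y15, 9.36 with lapatinib, 8.79 with both, 8.87 with PF04554878 and 8.81 with it plus lapatinib. CDH3 averaged 8.56, 8.94, 8.54, 8.57, 8.79 and 9.04 in that order. The higher basal sum with lapatinib than untreated was therefore carried by ACTA2. The fibroblast sum was 934 to 954 untreated, 966 to 969 with Y15, 915 to 957 with lapatinib and 902 to 930 with both. It was 1265 to 1268 with PF04554878 and 1061 to 1079 with it plus lapatinib. In it COL5A1 stood at means of 7.33 untreated, 8.86 with PF04554878 and 7.95 with it plus lapatinib. The part of all these markers in the results below was not tested. Fewer cells of a type and less RNA per cell cannot be told apart in such bulk samples.

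Values are log2 probe intensities, a change is a difference of group means on that scale ± its standard error in the fit (2 arrays a group, all 12 arrays in the fit), and a gene is said to rise or fall where limma's adjusted p was under 0.05 over all 11564 genes. The scale carries background, which shrinks folds, above all those of dim genes. A gene counted as below background in a group where its probes lay at or under 6.80 on both arrays, and its fold is then a lower bound against that cutoff.

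Of the 5 comparisons with the untreated arrays, lapatinib gave the largest median absolute change of the members, with genes moving in both directions. LDHB, PFKFB3, ADM, EPAS1 and ALDOC rose with lapatinib while SLC2A1, TPI1, HK2, GAPDH and PDK3 fell, each by more than a log2 unit. In lapatinib against untreated 13 of 35 rose and 17 fell, a share of 85.7% beside 55.9% of all genes tested, of which 27.9% rose and 28.0% fell. The median absolute log2 change was 0.68 among the 35 and 0.30 among all genes, and the median signed change was -0.18 against -0.01. Bright genes are called more often, and among the 7874 genes above background on all 12 arrays 61.6% were called, beside 25 of 30 members. For Y15 plus lapatinib against untreated 14 of 35 rose and 16 fell (85.7% beside 54.6%, with 27.4% higher and 27.1% lower). PF04554878 against untreated gave 10 rises and 4 falls (40% beside 45.2%, with 23.7% higher and 21.6% lower). PF04554878 plus lapatinib against untreated gave 13 rises and 4 falls (48.6% beside 46.3%, with 23.7% higher and 22.6% lower). In both comparisons the share called in either direction was near that of all genes. By direction the members rose more often and fell less often than all genes in both, a tilt that was not tested. For Y15 against untreated 3 of 35 rose and 1 fell (11.4% beside 5.44%, with 2.94% higher and 2.5% lower). These 5 comparisons share the untreated arrays.

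**Figure D1:**
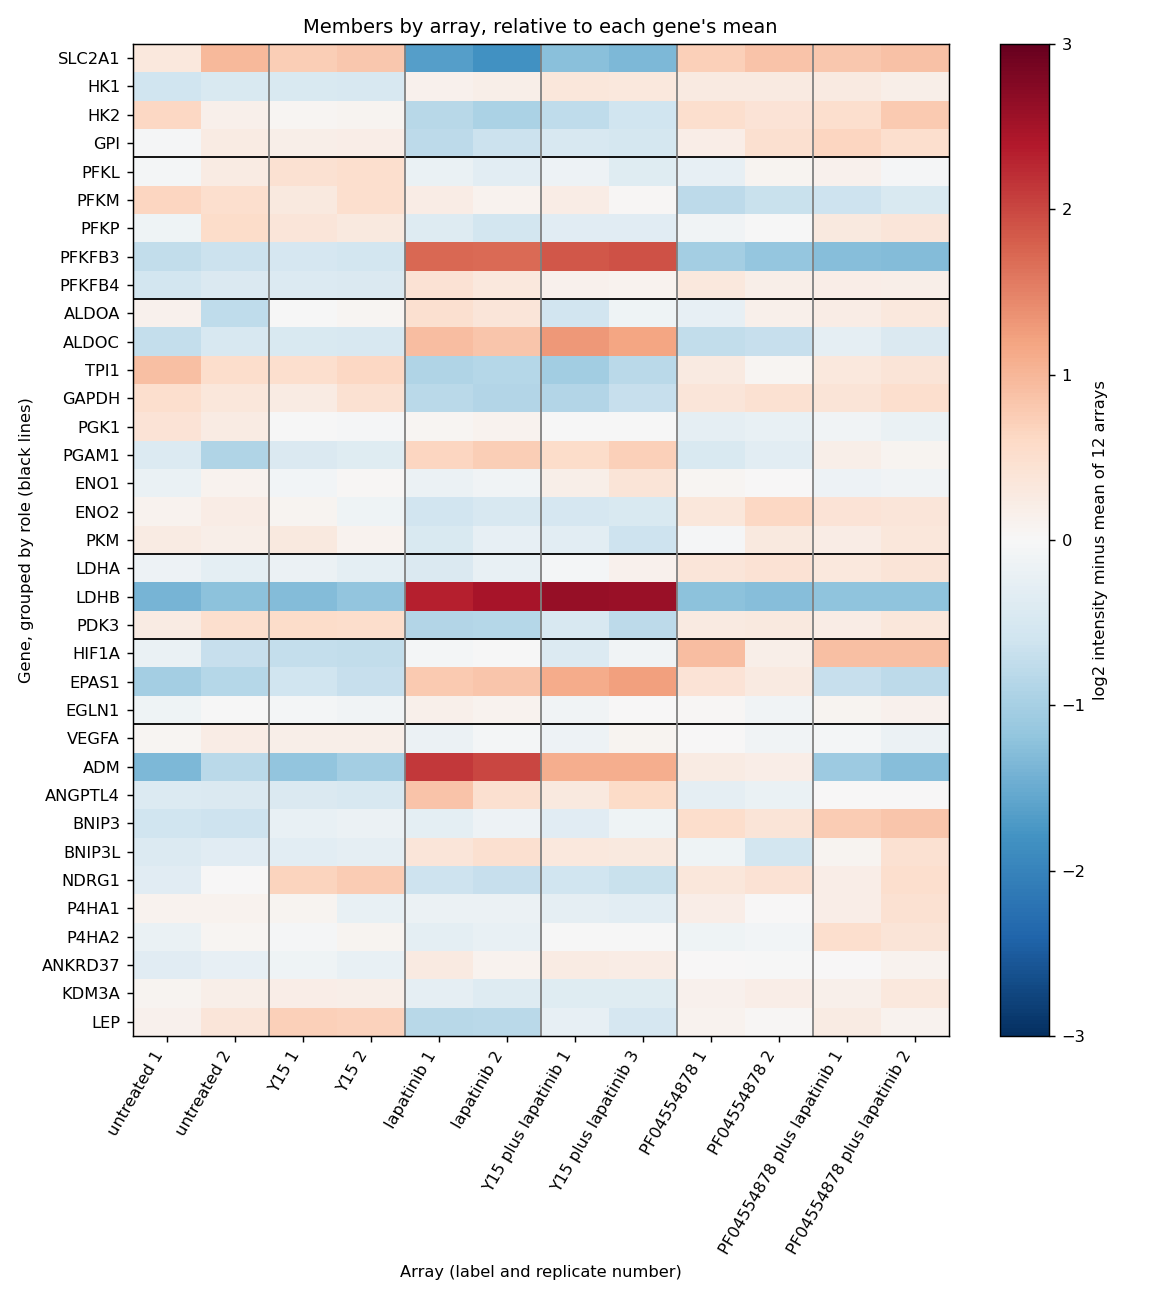
Log2 intensity of the 35 tested members on each of the 12 arrays, as the difference from each gene's mean over the arrays (colour), with genes in rows grouped by role and arrays in columns by label. The lapatinib and Y15 plus lapatinib columns look alike and differ most from the rest, in LDHB, PFKFB3 and ADM (higher) and SLC2A1 (lower).

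**Figure D2:**
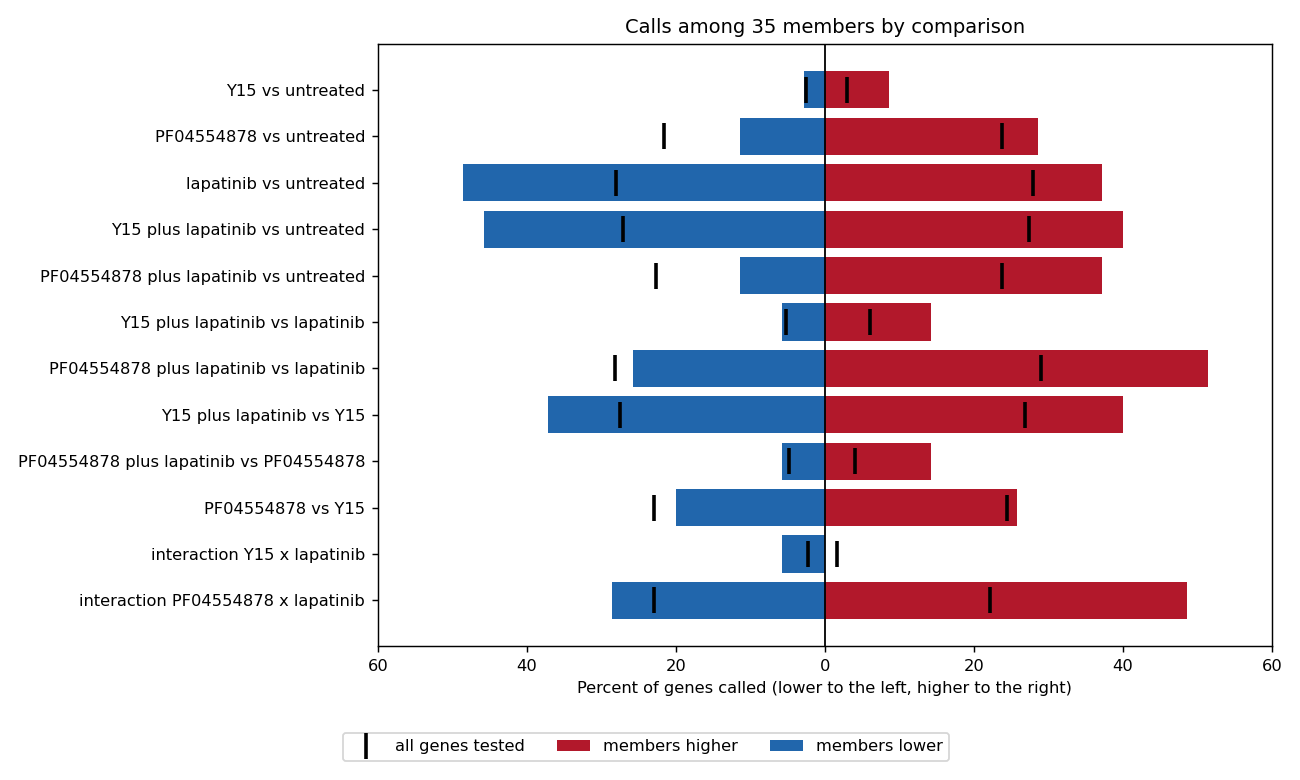
Percent of the 35 tested members called higher (right) or lower (left) in each of 12 comparisons, with a black tick at the percent among all genes tested. The bars pass the ticks on both sides for lapatinib against untreated, at 13 rises and 17 falls, and lie near them for PF04554878 against Y15.

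Promoter windows are shown for 5 members on which the comparisons turn, namely LDHB and ADM, which were higher with lapatinib, SLC2A1 and GAPDH, which were lower, and LDHA, the isoform partner of LDHB. Each is a window of 300 bases, most of it before the annotated start (RefSeq, GRCh38.p14), 5′ to 3′ in the direction of the gene. Capitals mark the letters ACGTG or GCGTG on either strand (CACGT or CACGC where they lie on the other), the core that hypoxia-inducible factors bind. CACGTG, an E-box, contains ACGTG on both strands and is counted as 1 stretch.
LDHB promoter, chr12:21657793-21658092, minus strand: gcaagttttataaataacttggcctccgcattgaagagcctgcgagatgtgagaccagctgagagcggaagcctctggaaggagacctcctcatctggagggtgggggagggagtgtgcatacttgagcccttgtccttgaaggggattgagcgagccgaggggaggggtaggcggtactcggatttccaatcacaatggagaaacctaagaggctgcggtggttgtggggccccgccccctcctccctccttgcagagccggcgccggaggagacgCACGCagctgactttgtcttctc
LDHA promoter, chr11:18394313-18394612, plus strand: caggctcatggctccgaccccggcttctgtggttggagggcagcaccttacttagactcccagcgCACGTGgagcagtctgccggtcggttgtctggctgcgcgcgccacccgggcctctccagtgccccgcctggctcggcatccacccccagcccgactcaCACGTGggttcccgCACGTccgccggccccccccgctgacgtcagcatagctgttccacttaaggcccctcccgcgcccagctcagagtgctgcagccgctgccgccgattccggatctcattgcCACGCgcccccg
SLC2A1 promoter, chr1:42958819-42959118, minus strand: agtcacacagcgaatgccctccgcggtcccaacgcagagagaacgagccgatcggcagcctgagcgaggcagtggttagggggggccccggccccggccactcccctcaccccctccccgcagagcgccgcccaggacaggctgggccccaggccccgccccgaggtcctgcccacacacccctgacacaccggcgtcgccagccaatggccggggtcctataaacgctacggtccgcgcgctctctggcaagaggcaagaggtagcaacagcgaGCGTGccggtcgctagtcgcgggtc
GAPDH promoter, chr12:6535014-6535313, plus strand: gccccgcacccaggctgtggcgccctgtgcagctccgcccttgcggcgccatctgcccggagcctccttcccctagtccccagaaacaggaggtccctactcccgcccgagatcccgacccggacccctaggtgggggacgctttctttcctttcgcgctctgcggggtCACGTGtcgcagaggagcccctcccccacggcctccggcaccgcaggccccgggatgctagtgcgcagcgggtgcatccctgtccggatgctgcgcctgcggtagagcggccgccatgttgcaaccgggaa
ADM promoter, chr11:10304823-10305122, plus strand: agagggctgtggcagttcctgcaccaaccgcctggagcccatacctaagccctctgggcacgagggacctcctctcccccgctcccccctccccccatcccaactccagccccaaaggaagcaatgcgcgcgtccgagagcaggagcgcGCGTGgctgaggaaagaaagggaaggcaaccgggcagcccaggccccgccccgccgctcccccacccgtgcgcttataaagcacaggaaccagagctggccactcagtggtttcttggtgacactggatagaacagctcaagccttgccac
The LDHA window is 1 of 2 for that gene, shown because it has the more such stretches. It held 4, 2 of them CACGTG, while the LDHA window not shown held 1 and no CACGTG. The other 4 windows shown held 1 each, that of GAPDH being a CACGTG. LDHB had 14 CG dinucleotides in its 300 bases and SLC2A1 30. Either motif occurred in 44 of 64 windows of the 36 members searched (68.8%), and in 48.4% of all 35116 windows of this length. These shares are no test, as the members were chosen as genes of these pathways. Windows of 1 gene can also overlap, with 7 each for HK1 and PFKM. A match describes the letters only.

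At the entry of the pathway, SLC2A1 and HK2 moved together and HK1 the other way. SLC2A1, the glucose transporter GLUT1, stood at 9.66 and 10.31 on the untreated arrays, 10.08 and 10.16 with Y15, 7.70 and 7.54 with lapatinib, 8.09 and 8.00 with Y15 plus lapatinib, 10.08 and 10.20 with PF04554878 and 10.17 and 10.23 with PF04554878 plus lapatinib. All 4 arrays labelled with lapatinib but not PF04554878 lay more than a log2 unit under the other 8. Lapatinib against untreated thus showed a 5.17-fold lower level (log2 change -2.37 ± 0.15, adjusted p = 2.89e-09), and Y15 plus lapatinib against untreated a change of -1.94 ± 0.15. PF04554878 plus lapatinib differed from untreated by 0.21 ± 0.15, adjusted p = 0.266, which did not pass.

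HK2, the inducible hexokinase, stood at 8.64 and 8.18 on the untreated arrays, 8.09 and 8.10 with Y15, 7.19 and 7.07 with lapatinib, 7.26 and 7.43 with Y15 plus lapatinib, 8.53 and 8.43 with PF04554878 and 8.52 and 8.82 with PF04554878 plus lapatinib. The same 4 arrays were the lowest, with no overlap, and lapatinib against untreated gave -1.28 ± 0.14, adjusted p = 1.03e-06. HK1, the hexokinase found in most cells, stood at 11.01 and 11.15 on the untreated arrays, 11.15 and 11.12 with Y15, 11.73 and 11.78 with lapatinib, 11.95 and 11.92 with Y15 plus lapatinib, 11.88 and 11.88 with PF04554878 and 11.87 and 11.78 with PF04554878 plus lapatinib. All arrays outside the untreated and Y15 groups were higher for HK1, by 0.68 ± 0.09 with lapatinib and 0.80 ± 0.09 with PF04554878, and by 0.86 ± 0.09 and 0.75 ± 0.09 where lapatinib was joined to Y15 and to PF04554878, each against untreated. A second, dimmer HK1 probe, above background on all 12 arrays, differed by less. Its differences were 0.33 with lapatinib, 0.13 with PF04554878, 0.38 with Y15 plus lapatinib and 0.19 with PF04554878 plus lapatinib. GPI, glucose-6-phosphate isomerase, fell by 0.82 ± 0.11 with lapatinib and rose by 0.47 ± 0.11 with PF04554878 plus lapatinib. A dimmer HK2 probe ran the same way at smaller size, from a mean of 7.59 untreated to 7.35 with lapatinib.

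Both measured kinase-phosphatases that set fructose-2,6-bisphosphate, the activator of phosphofructokinase, rose with lapatinib, and all 3 phosphofructokinase genes fell, though not PFKL in every refit. PFKFB3, the form with the strongest kinase activity, stood at 9.15 and 9.24 on the untreated arrays, 9.38 and 9.34 with Y15, 11.62 and 11.59 with lapatinib, 11.75 and 11.81 with Y15 plus lapatinib, 8.88 and 8.73 with PF04554878 and 8.62 and 8.59 with PF04554878 plus lapatinib. Its 4 highest arrays were again those labelled lapatinib or Y15 plus lapatinib. The difference from untreated was 5.31-fold with lapatinib (log2 change 2.41 ± 0.09, adjusted p = 4.41e-12) and 5.99-fold with Y15 plus lapatinib. PFKFB3 fell with PF04554878 (-0.39 ± 0.09) and with PF04554878 plus lapatinib (-0.59 ± 0.09). A second PFKFB3 probe stood at 7.50 untreated and 9.32 with lapatinib.

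PFKFB4, its hypoxia-responsive relative, stood at 6.98 and 7.11 on the untreated arrays, 7.13 and 7.11 with Y15, 7.97 and 7.85 with lapatinib, 7.67 and 7.65 with Y15 plus lapatinib, 7.85 and 7.72 with PF04554878 and 7.74 and 7.71 with PF04554878 plus lapatinib. Every group other than Y15 was higher than untreated, by 0.86 ± 0.09 with lapatinib and 0.74 ± 0.09 with PF04554878. Of the 3 phosphofructokinase subunits, PFKM, the muscle form, stood at 9.63 and 9.50 on the untreated arrays, 9.27 and 9.50 with Y15, 9.22 and 9.08 with lapatinib, 9.21 and 9.03 with Y15 plus lapatinib, 8.21 and 8.31 with PF04554878 and 8.35 and 8.52 with PF04554878 plus lapatinib. It was lowest in the 4 arrays labelled with PF04554878, where it fell by 1.30 ± 0.11 alone and by 1.13 ± 0.11 with lapatinib. The platelet form PFKP fell with lapatinib (-0.68 ± 0.15) and with Y15 plus lapatinib (-0.55 ± 0.15), the second of these calls ending with the replicate number as a block and without untreated replicate 2 (-0.50 to -0.22). The liver form PFKL changed by -0.35 ± 0.13 and -0.35 ± 0.13, calls that ended after background subtraction and without lapatinib replicate 1, lapatinib replicate 2 or untreated replicate 2 (-0.47 to -0.19) and, for the combination, after background subtraction, in a fit of the compared groups alone, with the replicate number as a block and without Y15 plus lapatinib replicate 3 or untreated replicate 2 (-0.48 to -0.20).

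The lower enzymes did not shift as 1 block. With lapatinib 3 of 9 rose and 5 fell (88.9% beside 55.9% of all genes). GAPDH, the dehydrogenase often used as a reference gene, stood at 13.24 and 13.07 on the untreated arrays, 12.98 and 13.19 with Y15, 11.92 and 11.85 with lapatinib, 11.86 and 12.03 with Y15 plus lapatinib, 13.10 and 13.19 with PF04554878 and 13.11 and 13.23 with PF04554878 plus lapatinib. The 4 lapatinib and Y15 plus lapatinib arrays lay over a log2 unit under the untreated ones, a 2.42-fold difference for lapatinib (-1.27 ± 0.10, adjusted p = 4.79e-08), and all 3 GAPDH probes were lower, the others by 1.33 and 1.21. With PF04554878 the GAPDH change was -0.01, 95% interval -0.23 to 0.21.

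TPI1, triosephosphate isomerase, stood at 12.76 and 12.38 on the untreated arrays, 12.36 and 12.48 with Y15, 10.95 and 10.98 with lapatinib, 10.80 and 11.04 with Y15 plus lapatinib, 12.11 and 11.91 with PF04554878 and 12.17 and 12.24 with PF04554878 plus lapatinib. It fell with lapatinib (-1.60 ± 0.12, adjusted p = 2.53e-08), with Y15 plus lapatinib (-1.65 ± 0.12) and with PF04554878 (-0.55 ± 0.12). A second TPI1 probe, above background on all 12 arrays, differed by -1.18 with lapatinib and -1.17 with Y15 plus lapatinib. Its difference was -0.16 with PF04554878, -0.02 with PF04554878 plus lapatinib and 0.39 with Y15. With PF04554878 plus lapatinib TPI1 changed by -0.36 ± 0.12, a call that ended after background subtraction, with the mean of the kept probes, in a fit of the compared groups alone and without PF04554878 plus lapatinib replicate 1, PF04554878 plus lapatinib replicate 2 or untreated replicate 1 (-0.40 to -0.17). PGAM1, phosphoglycerate mutase, went the opposite way and stood at 10.41 and 9.92 on the untreated arrays, 10.38 and 10.46 with Y15, 11.47 and 11.56 with lapatinib, 11.37 and 11.54 with Y15 plus lapatinib, 10.36 and 10.49 with PF04554878 and 10.99 and 10.91 with PF04554878 plus lapatinib. PGAM1 rose by 1.35 ± 0.13 with lapatinib, 1.29 ± 0.13 with Y15 plus lapatinib and 0.79 ± 0.13 with PF04554878 plus lapatinib.

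ALDOC, the brain-type aldolase, stood at 8.29 and 8.51 on the untreated arrays, 8.53 and 8.51 with Y15, 9.92 and 9.82 with lapatinib, 10.29 and 10.19 with Y15 plus lapatinib, 8.25 and 8.31 with PF04554878 and 8.72 and 8.55 with PF04554878 plus lapatinib. Its rise was 2.77-fold with lapatinib (1.47 ± 0.10, adjusted p = 6.54e-09) and 3.57-fold with Y15 plus lapatinib. For ALDOA, the main aldolase, the untreated arrays themselves stood at 12.03 and 11.13, and a rise of 0.74 ± 0.22 with lapatinib ended with the mean of the kept probes and without lapatinib replicate 1 or untreated replicate 2 (0.29 to 0.67). With PF04554878 plus lapatinib its rise of 0.58 ± 0.22 ended after background subtraction, with the mean of the kept probes, without the filter on dim probes, in a fit of the compared groups alone and without PF04554878 plus lapatinib replicate 1, PF04554878 plus lapatinib replicate 2 or untreated replicate 2 (0.13 to 0.62). ENO2, the neuronal enolase, was below background in both lapatinib groups without PF04554878 and at least 1.52-fold lower in each (7.34 and 7.46 untreated, 6.68 and 6.77 with lapatinib, 6.73 and 6.78 with Y15 plus lapatinib). ENO1, the common enolase, stood between 12.69 and 13.28 on the 12 arrays, and its change with lapatinib was -0.10 ± 0.11, adjusted p = 0.47, while a rise of 0.32 ± 0.11 with Y15 plus lapatinib ended after background subtraction, in a fit of the compared groups alone, with the replicate number as a block and without Y15 plus lapatinib replicate 3 or untreated replicate 1 (0.17 to 0.33).

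PKM, pyruvate kinase, fell by 0.56 ± 0.13 with lapatinib, a call that ended with the mean of the kept probes (-0.29). Its other 2 probes stood at 10.02 and 9.16 untreated, and at 9.77 and 9.11 with lapatinib. PGK1, phosphoglycerate kinase, stood at 11.37 and 11.21 on the untreated arrays, 10.95 and 10.91 with Y15, 11.02 and 11.06 with lapatinib, 10.95 and 10.94 with Y15 plus lapatinib, 10.69 and 10.73 with PF04554878 and 10.86 and 10.76 with PF04554878 plus lapatinib. The untreated arrays were the highest for PGK1, and it was called lower in all 5 comparisons against them. The call with lapatinib (-0.25 ± 0.09) ended after background subtraction, with the mean of the kept probes, in a fit of the compared groups alone and without lapatinib replicate 1, lapatinib replicate 2 or untreated replicate 1 (-0.27 to -0.07), and a second PGK1 probe differed by 0.10 there. The call with Y15 plus lapatinib (-0.34 ± 0.09) ended with the mean of the kept probes (-0.17), and the second probe differed by 0.00.

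Lactate dehydrogenase gave the largest single difference among the members. LDHB, the heart-type subunit, stood at 6.36 and 6.50 on the untreated arrays, 6.45 and 6.57 with Y15, 10.08 and 10.22 with lapatinib, 10.36 and 10.32 with Y15 plus lapatinib, 6.51 and 6.46 with PF04554878 and 6.54 and 6.53 with PF04554878 plus lapatinib. It was below background on all 8 arrays outside the lapatinib and Y15 plus lapatinib groups and far above it on those 4. LDHB passed the filter on dim probes only through those 4 arrays, so its p-value is no separate support. Its level was at least 10.2-fold higher with lapatinib than untreated (measured log2 change 3.72 ± 0.09, adjusted p = 4.27e-14) and at least 11.7-fold higher with Y15 plus lapatinib. The arrays labelled PF04554878 plus lapatinib did not share this level although lapatinib is in their label.

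LDHA, the muscle-type subunit, stood at 12.61 and 12.47 on the untreated arrays, 12.59 and 12.48 with Y15, 12.33 and 12.53 with lapatinib, 12.72 and 12.90 with Y15 plus lapatinib, 13.13 and 13.21 with PF04554878 and 13.08 and 13.15 with PF04554878 plus lapatinib. Here the 4 arrays with PF04554878 were the highest, by 0.63 ± 0.10 alone and 0.58 ± 0.10 with lapatinib, and lapatinib alone differed from untreated by -0.10 ± 0.10, adjusted p = 0.4. A second, nearly as bright LDHA probe rose alike, from 12.54 untreated to 13.16 with PF04554878. PDK3, a kinase that shuts off pyruvate dehydrogenase, stood at 9.45 and 9.71 on the untreated arrays, 9.74 and 9.74 with Y15, 8.32 and 8.34 with lapatinib, 8.73 and 8.41 with Y15 plus lapatinib, 9.48 and 9.49 with PF04554878 and 9.43 and 9.55 with PF04554878 plus lapatinib. It fell with lapatinib (-1.25 ± 0.11, adjusted p = 1.43e-07) and with Y15 plus lapatinib (-1.01 ± 0.11). A second PDK3 probe also stood lower with lapatinib, at 7.82 against 8.58 untreated, but higher with PF04554878, at 9.55, where the tested probe differed by -0.10 ± 0.11 and did not pass.

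**Figure D3:**
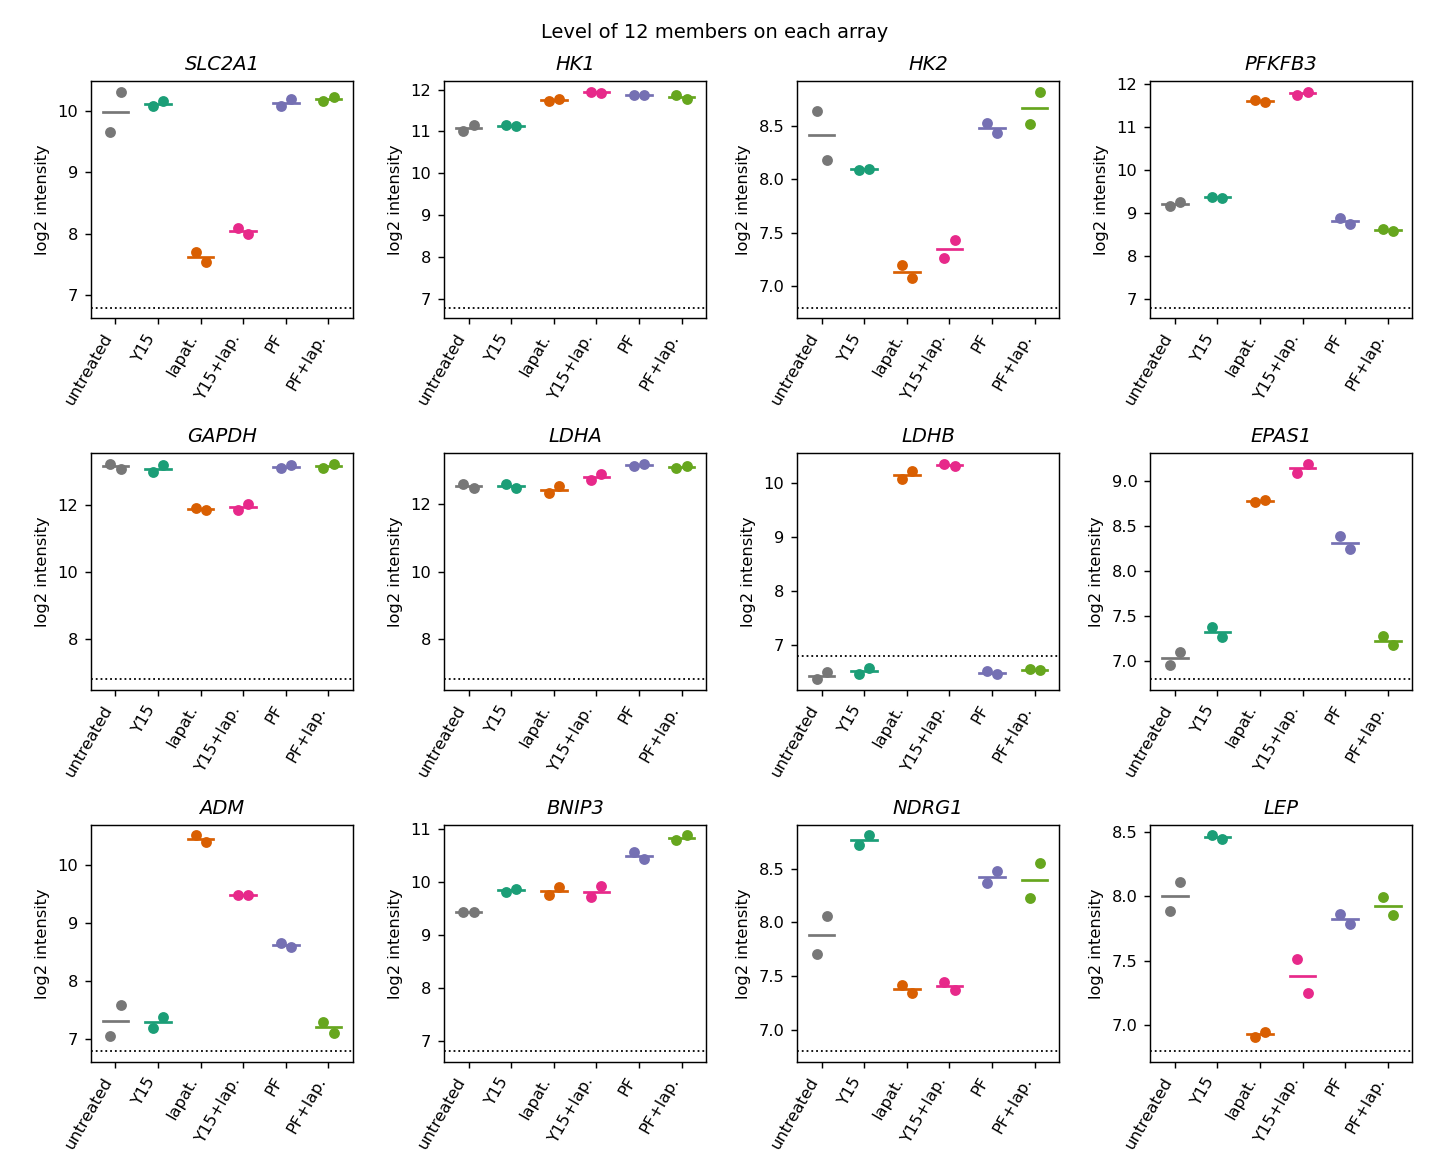
Log2 intensity of 12 members on each array (points) with group means (short lines) for the 6 labelled groups (PF is PF04554878, lap. or lapat. lapatinib), and the background cutoff as a dotted line. LDHB leaves the background only in the 4 arrays labelled lapatinib or Y15 plus lapatinib, where SLC2A1, HK2 and GAPDH are lowest, and LDHA is highest in the 4 labelled with PF04554878.

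The 2 factor genes followed different labels. HIF1A, controlled mostly at the protein level, stood at 7.68 and 7.18 on the untreated arrays, 7.16 and 7.13 with Y15, 7.81 and 7.86 with lapatinib, 7.46 and 7.76 with Y15 plus lapatinib, 8.79 and 8.05 with PF04554878 and 8.76 and 8.78 with PF04554878 plus lapatinib. It rose with PF04554878 (0.99 ± 0.19, adjusted p = 0.000483) and PF04554878 plus lapatinib (1.34 ± 0.19, adjusted p = 2.90e-05), and its change with lapatinib, 0.40 ± 0.19, adjusted p = 0.0825, did not pass. The arrays labelled PF04554878 were further apart for HIF1A than those of any other group. Both further HIF1A probes were higher with PF04554878 as well, at 8.49 and 7.68 against 7.27 and 7.00 untreated.

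EPAS1, which encodes HIF-2α, stood at 6.95 and 7.11 on the untreated arrays, 7.38 and 7.27 with Y15, 8.76 and 8.79 with lapatinib, 9.09 and 9.19 with Y15 plus lapatinib, 8.38 and 8.24 with PF04554878 and 7.27 and 7.18 with PF04554878 plus lapatinib. It rose with lapatinib (3.36-fold, 1.75 ± 0.09, adjusted p = 4.48e-10), with Y15 plus lapatinib (2.11 ± 0.09) and with PF04554878 (1.28 ± 0.09), and with PF04554878 plus lapatinib it differed from untreated by 0.20, 95% interval 0.00 to 0.40, which did not pass. EGLN1, the main prolyl hydroxylase, stood between 7.13 and 7.41 on the 12 arrays and was called in none of the 12 comparisons, with unadjusted p under 0.05 in 1 of them by limma.

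Genes known to respond to low oxygen did not move as a block either. With lapatinib 5 of 11 rose and 5 fell (90.9% beside 55.9% of all genes). With PF04554878 4 rose and 0 fell (36.4% beside 45.2% of all genes in either direction). As all 4 were rises, the like share of all genes is the 23.7% called higher, with 21.6% called lower. ADM, the vasodilator peptide adrenomedullin, stood at 7.05 and 7.58 on the untreated arrays, 7.20 and 7.38 with Y15, 10.51 and 10.39 with lapatinib, 9.48 and 9.48 with Y15 plus lapatinib, 8.65 and 8.59 with PF04554878 and 7.30 and 7.11 with PF04554878 plus lapatinib. The lapatinib arrays were the highest, followed by Y15 plus lapatinib and PF04554878, and those with PF04554878 plus lapatinib lay within the untreated range. ADM was 8.75-fold higher with lapatinib (3.13 ± 0.14, adjusted p = 3.88e-11), 4.47-fold with Y15 plus lapatinib and 2.47-fold with PF04554878.

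BNIP3, a mitophagy receptor, stood at 9.43 and 9.42 on the untreated arrays, 9.81 and 9.87 with Y15, 9.75 and 9.89 with lapatinib, 9.70 and 9.91 with Y15 plus lapatinib, 10.56 and 10.43 with PF04554878 and 10.80 and 10.87 with PF04554878 plus lapatinib. All 10 treated arrays exceeded both untreated ones, by 0.41 ± 0.10 with Y15, 1.07 ± 0.10 with PF04554878 and 0.40 ± 0.10 with lapatinib, and by 0.38 ± 0.10 and 1.41 ± 0.10 where lapatinib was joined to Y15 and to PF04554878. The call for Y15 plus lapatinib ended with the replicate number as a block and without Y15 plus lapatinib replicate 3 (0.28 to 0.29). Its relative BNIP3L rose with lapatinib (0.80 ± 0.14), Y15 plus lapatinib (0.68 ± 0.14) and PF04554878 plus lapatinib (0.65 ± 0.14), while with PF04554878 alone the arrays stood at 8.41 and 7.97 and the change was 0.04 ± 0.14.

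NDRG1, a stress-responsive gene, stood at 7.70 and 8.06 on the untreated arrays, 8.72 and 8.81 with Y15, 7.41 and 7.34 with lapatinib, 7.44 and 7.37 with Y15 plus lapatinib, 8.37 and 8.47 with PF04554878 and 8.23 and 8.55 with PF04554878 plus lapatinib. It was highest with Y15, rising by 0.88 ± 0.12, adjusted p = 0.000825, rose with PF04554878 (0.54 ± 0.12), and fell with lapatinib (-0.50 ± 0.12). LEP, the adipocyte hormone leptin, stood at 7.89 and 8.11 on the untreated arrays, 8.47 and 8.45 with Y15, 6.91 and 6.95 with lapatinib, 7.52 and 7.25 with Y15 plus lapatinib, 7.86 and 7.78 with PF04554878 and 7.99 and 7.85 with PF04554878 plus lapatinib. It rose with Y15 (0.46 ± 0.11, adjusted p = 0.0236) and fell with lapatinib (-1.07 ± 0.11, adjusted p = 5.08e-07). Of the 8 adipocyte markers with a probe only CFD passed the filter, at 7.44 untreated, 7.55 with Y15 and 8.43 with lapatinib, and PLIN1 and FABP4 were below background on all 12 arrays. The sum of linear intensities over these 8 markers, 7 of which did not pass the filter and add mostly background, was 830 to 851 untreated, 858 to 886 with Y15 and 986 to 1036 with lapatinib. A second LEP probe was below background on all 12 arrays.

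VEGFA, the main angiogenic factor, lay close to background throughout, between 6.71 and 7.11, and its other 2 probes were below it on all 12 arrays. Its fall with lapatinib (-0.26 ± 0.10) ended without the filter on dim probes, in a fit of the compared groups alone and without lapatinib replicate 1, lapatinib replicate 2 or untreated replicate 2 (-0.31 to -0.17). ANGPTL4, a lipase inhibitor, stood at 6.71 and 6.68 untreated and 7.98 and 7.60 with lapatinib and rose there by 1.10 ± 0.12, adjusted p = 1.30e-06, a change set against a probe at background. A second ANGPTL4 probe, just above background untreated at 6.90, differed by 0.14. ANKRD37, whose adjusted p is 0.000355 there, was below background untreated and at least 1.22-fold higher with lapatinib. Its probe and the tested probe of ANGPTL4 passed the filter on dim probes only through arrays outside the untreated and Y15 groups. Neither p-value is therefore separate support. KDM3A, a histone demethylase, fell by 0.47 ± 0.09 with lapatinib. Of the collagen prolyl hydroxylases, P4HA1 differed by -0.29 ± 0.11 with lapatinib, a call that ended after background subtraction, without the filter on dim probes, with the replicate number as a block and without lapatinib replicate 1, lapatinib replicate 2, untreated replicate 1 or untreated replicate 2 (-0.43 to -0.28), and P4HA2 rose with PF04554878 plus lapatinib (0.52 ± 0.10).

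Y15 alone and untreated form 1 of the pairs of alike groups. NDRG1, LEP and BNIP3 rose and PGK1 fell, and PGK1 was 1 of 21 tested glycolytic members (4.76% beside 5.44% of all genes, a share near that background). For NDRG1 the call held in every alternative run. The call for BNIP3 ended after background subtraction, in a fit of the compared groups alone and without Y15 replicate 1, Y15 replicate 2 or untreated replicate 1 (0.38 to 0.47), that for LEP after background subtraction, in a fit of the compared groups alone and without Y15 replicate 1, Y15 replicate 2 or untreated replicate 1 (0.35 to 0.68) and that for PGK1 after background subtraction, with the mean of the kept probes, in a fit of the compared groups alone, with the replicate number as a block and without Y15 replicate 1, Y15 replicate 2 or untreated replicate 1 (-0.38 to -0.25). SLC2A1 differed by 0.13, 95% interval -0.19 to 0.45, PFKFB3 by 0.16, 95% interval -0.03 to 0.35 and LDHA by 0.00, 95% interval -0.22 to 0.21. Without untreated replicate 2 the number of members called was 9, and without untreated replicate 1 it was 3. The 2 untreated arrays differed more than those of any other group, with an SD of 0.229 over the 35 members against 0.0805 with Y15.

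When Y15 was added to lapatinib, 5 of 35 members rose and 2 fell (20% beside 11.3%, with 6.04% higher and 5.25% lower). ADM fell by 0.97 ± 0.14 (adjusted p = 0.000757), from 10.51 and 10.39 to 9.48 and 9.48, and ALDOA by 0.76 ± 0.22. ENO1 (0.42 ± 0.11), LDHA (0.37 ± 0.10), ALDOC (0.37 ± 0.10), EPAS1 (0.36 ± 0.09) and LEP (0.45 ± 0.11) rose. Calls were fewer with the replicate number as a block, which leaves Y15 plus lapatinib to 1 array, and when any 1 of the 4 arrays was left out. ADM alone kept its call in each of those 4 fits, from -1.03 to -0.91, and lost it after background subtraction (-1.07). SLC2A1, the member that fell most with lapatinib, differed by 0.43, 95% interval 0.11 to 0.75, which did not pass (adjusted p = 0.0778). Against Y15 alone, Y15 plus lapatinib gave 14 rises and 13 falls (77.1% beside 54.3%, with 26.8% higher and 27.5% lower), including SLC2A1 at -2.07 ± 0.15 and LDHB at least 11.7-fold higher.

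Lapatinib added to PF04554878 gave few of the calls seen with lapatinib alone. There 5 of 35 members rose and 2 fell (20% beside 8.88%, with 4.1% higher and 4.78% lower). ADM fell by 1.42 ± 0.14 (adjusted p = 1.13e-05) and EPAS1 by 1.08 ± 0.09, both of which rose with lapatinib alone. BNIP3L (0.61 ± 0.14), P4HA2 (0.55 ± 0.10), PGAM1 (0.52 ± 0.13), ALDOC (0.36 ± 0.10) and BNIP3 (0.34 ± 0.10) rose. The count was 3 after background subtraction and between 3 and 5 when 1 of the 4 arrays was left out, and the calls of ADM, EPAS1 and P4HA2 held in every alternative run. SLC2A1 differed by 0.06, 95% interval -0.25 to 0.38, PFKFB3 by -0.20, 95% interval -0.39 to -0.02 and GAPDH by 0.03, 95% interval -0.19 to 0.25, intervals that leave out the size of their changes with lapatinib alone. LDHB stayed below background on all 4 arrays.

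The test of the difference itself, the interaction of PF04554878 and lapatinib, called 27 of 35 members (77.1% beside 45.0% of all genes, with 22.1% above 0 and 22.9% below), and that of Y15 and lapatinib 2, ADM and NDRG1 (5.71% beside 3.87%, with 1.63% above 0 and 2.23% below). Set directly against lapatinib, the arrays labelled PF04554878 plus lapatinib had 18 members higher and 9 lower (77.1% beside 57.2%, with 29.0% higher and 28.2% lower), led by SLC2A1 (2.58 ± 0.15) and by LDHB (at least 10.2-fold lower), ADM (-3.24 ± 0.14) and PFKFB3 (-3.00 ± 0.09).

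**Figure D4:**
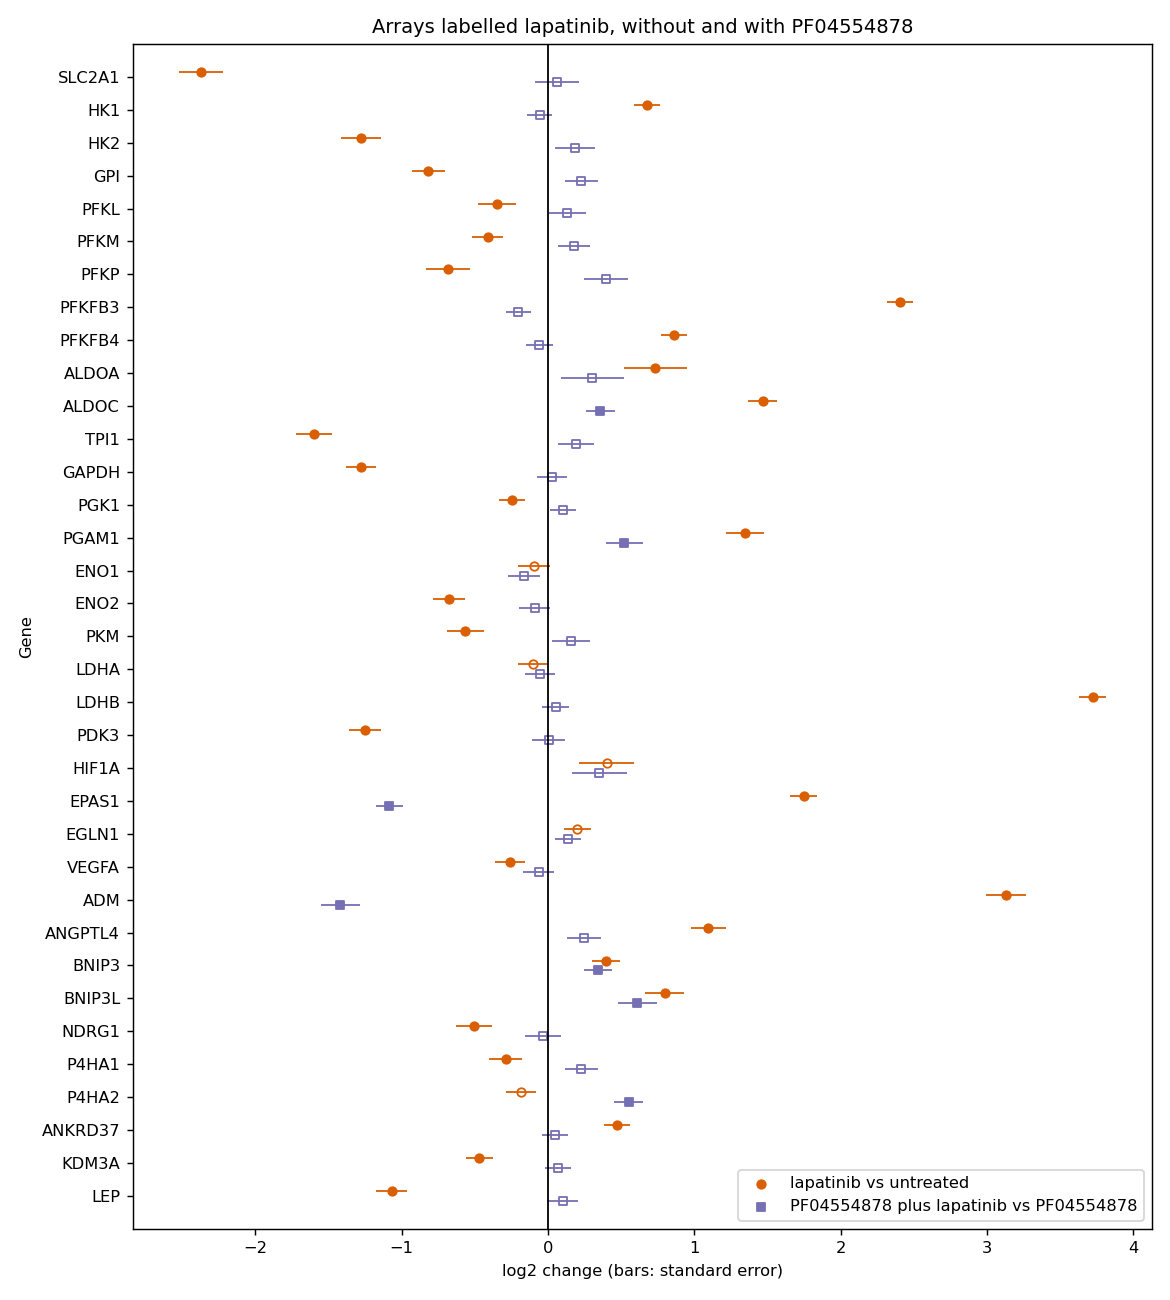
Log2 change ± standard error of the 35 tested members in lapatinib against untreated (circles) and in PF04554878 plus lapatinib against PF04554878 (squares), 2 arrays a group, filled where the adjusted p was under 0.05. SLC2A1, PFKFB3, LDHB and GAPDH lie far from 0 only without PF04554878, and EPAS1 and ADM lie on opposite sides of 0.

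The FAK inhibitors were compared at their shared dose of 1 µM and 24 hours. Of the 35 members 9 were higher with PF04554878 than with Y15 and 7 lower (45.7% beside 47.4%, with 24.5% higher and 22.9% lower), with p-values adjusted over all genes. ADM (1.33 ± 0.14, adjusted p = 1.22e-06), HIF1A (1.28 ± 0.19), EPAS1 (0.99 ± 0.09), HK1 (0.74 ± 0.09), PFKFB4 (0.67 ± 0.09), BNIP3 (0.66 ± 0.10) and LDHA (0.63 ± 0.10) were higher with PF04554878. The second HK1 probe differed by only 0.02 here. PFKM (-1.12 ± 0.11), LEP (-0.64 ± 0.11), PFKL (-0.56 ± 0.13) and PFKFB3 (-0.55 ± 0.09) were lower. No difference passed for SLC2A1 (0.02, 95% interval -0.30 to 0.33), GAPDH (0.06, 95% interval -0.16 to 0.28) or ENO1 (0.05, 95% interval -0.18 to 0.28).

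Wider lists of the same pathways, of genes that are not members, were read for context. Of 22 further glucose and pyruvate genes, 7 rose and 7 fell with lapatinib (63.6% beside 55.9% of all genes), with a median change of 0.06. The subunits DLAT (1.33 ± 0.12) and PDHB (1.01 ± 0.09) of pyruvate dehydrogenase and PYGL, liver glycogen phosphorylase (1.29 ± 0.09), were the largest rises. FBP1, a gluconeogenic phosphatase (-1.45 ± 0.11), TIGAR (-1.12 ± 0.11) and UGP2 (-0.59 ± 0.10) were the largest falls. With PF04554878 9 rose and 1 fell (45.5% beside 45.2% of all genes), led by the mitochondrial pyruvate carrier genes MPC2 (1.51 ± 0.08) and MPC1 (1.16 ± 0.10) and by GBE1 (1.08 ± 0.13), while PDHB was the 1 that fell (-0.25 ± 0.09). With PF04554878 plus lapatinib 10 rose, led by MPC2 (1.36 ± 0.08), GBE1 (1.31 ± 0.13) and SLC2A10 (0.81 ± 0.11), and 3 fell (59.1% beside 46.3% of all genes). With Y15 only SLC2A10 was called (0.39 ± 0.11), a share of 4.55% beside 5.44% of all genes, and Y15 plus lapatinib gave 4 rises and 7 falls (50% beside 54.6% of all genes).

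Of 34 further hypoxia-responsive or regulatory genes 12 rose and 9 fell with lapatinib (61.8% beside 55.9% of all genes), led by the secreted glycoprotein STC2 (1.72 ± 0.10), the prolyl hydroxylase EGLN2 (1.69 ± 0.09) and PLIN2, a lipid droplet coat protein (1.46 ± 0.10), and by WSB1 (-0.92 ± 0.13) and STC1 (-0.60 ± 0.12) among the falls. With PF04554878 14 rose and 7 fell (61.8% beside 45.2% of all genes). PPP1R3C, a glycogen-targeting phosphatase subunit, was at least 5.88-fold higher there, STC1 changed by 2.03 ± 0.12 and STC2 by 1.92 ± 0.10, and DDIT4, an mTORC1 inhibitor, fell by 1.00 ± 0.11. STC2 was thus called higher with either drug, whereas STC1 fell with lapatinib and rose with PF04554878. Y15 gave 2 rises, DDIT4 (0.43 ± 0.11) and HILPDA (0.34 ± 0.09), and 1 fall, FAM162A (-0.41 ± 0.09), a share of 8.82% beside 5.44% of all genes. With Y15 plus lapatinib 14 rose and 7 fell (61.8% beside 54.6% of all genes), with rises of 2.47 ± 0.10 in STC2 and 1.78 ± 0.16 in CA12, a carbonic anhydrase. With PF04554878 plus lapatinib 13 rose and 6 fell (55.9% beside 46.3% of all genes), with PPP1R3C at least 7.52-fold higher.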

How the data were processed

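RNA of 12 samples was measured on Illumina arrays. All results come from log2 probe intensities that the authors deposited. The submitters' processing notes name GenomeStudio and leave background correction and normalization unstated. The deposited log2 values ran from 6.20 to 13.90, with nearly identical quantiles on every array. A second deposited table was not used, because the names of its 24 per-sample columns fit no label.

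Background was taken as the mode of all values (6.55) plus 3 SD of the values below it, a cutoff of 6.80. Of 47318 probes 30111 had 1 gene symbol in the platform annotation, 8 several and 17199 none. Probes above the cutoff on at least 2 arrays were kept, and each gene took its brightest. Precision is limited by how few arrays there are.

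limma 3.58.1 (R 4.3.3) fitted 1 mean per group over all 12 arrays (6 residual and 9.10 prior degrees of freedom), with Benjamini-Hochberg adjustment over 11564 genes and a threshold of 0.05, in 12 comparisons. The fit was tested on simulated data. Alternatives were 2 other filters, the mean of the kept probes, a fit of the compared groups, the replicate number as a block, background subtraction and leaving out each array. Number 3 occurs only on 1 Y15 plus lapatinib array, so the block leaves that group's mean to its other array.

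The 40 members and both wider lists were chosen with earlier results of these data known. All members could be named. Of the wider lists the 3 largest changes each way against untreated were eligible.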

Additional observations from a re-analysis of the deposited data

Results flagged for a closer look

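The difference between arrays with and without lapatinib in their label was itself different with PF04554878 present for 27 of 35 members, by limma's interaction term, the combination minus PF04554878 minus lapatinib plus untreated, with adjusted p from 7.20e-11 (ADM) to 0.0405 (PFKL) among those other than LDHB. On the log2 scale it was above 0 for 17 members, SLC2A1 (2.43), TPI1 (1.79), HK2 (1.46), GAPDH (1.30), PDK3 (1.25), LEP (1.17), PFKP (1.08), GPI (1.05), P4HA2 (0.74), PKM (0.72), PFKM (0.59), ENO2 (0.58), KDM3A (0.54), P4HA1 (0.51), PFKL (0.48), NDRG1 (0.47) and PGK1 (0.35). It was below 0 for 10 members, ADM (-4.55), LDHB (-3.67), EPAS1 (-2.83), PFKFB3 (-2.61), ALDOC (-1.11), PFKFB4 (-0.92), ANGPTL4 (-0.85), PGAM1 (-0.82), HK1 (-0.73) and ANKRD37 (-0.42). LDHB was below background in 3 of the 4 groups, so its value has no bound. It passed the filter on dim probes only through the arrays labelled lapatinib or Y15 plus lapatinib, so its p-value is no separate support. ENO2 and ANKRD37 were below background in 1 of the 4 groups. The tested probe of ANGPTL4 was also below it untreated, so that its value is set against background, and a second probe above it there differed by 0.14 between lapatinib and untreated. Of these 27 calls 22 held under every alternative run that could be made for them and 5 were lost under some, those of PGK1 (0.22 to 0.37 in those refits), PFKL (0.31 to 0.65), NDRG1 (0.29 to 0.51), P4HA1 (0.39 to 0.43) and ANKRD37 (-0.38 to -0.34), among them refits without 1 array. The groups entering this term lie in all 3 sets of alike arrays, which cannot be told apart from the drugs.

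For Y15 and lapatinib the term passed for ADM (-0.94, adjusted p = 0.0191 by limma) and NDRG1 (-0.85, adjusted p = 0.0189). Both calls ended after background subtraction, with the replicate number as a block and without any 1 of several arrays, among them either Y15 array, with values of -1.09 to -0.85 and -1.21 to -0.74 in those refits.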

How the results depend on the processing

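Of 208 calls of single members, none changed direction while called, 1133 of 1223 refits under other settings kept them and 90 did not, and of 948 refits without 1 array 814 kept them and 134 did not. After background subtraction, members called went from 4 to 2 for Y15 against untreated, from 7 to 1 for Y15 plus lapatinib against lapatinib, from 7 to 3 for PF04554878 plus lapatinib against PF04554878, from 2 to 0 for the interaction of Y15 and lapatinib and genes called went from 629 to 419 for Y15 against untreated, from 447 to 214 for the interaction of Y15 and lapatinib. In a fit of the compared groups alone, members called went from 4 to 1 for Y15 against untreated and genes called went from 629 to 60 for Y15 against untreated, from 447 to 288 for the interaction of Y15 and lapatinib. With the replicate number as a block, members called went from 7 to 3 for Y15 plus lapatinib against lapatinib, from 2 to 0 for the interaction of Y15 and lapatinib and genes called went from 629 to 356 for Y15 against untreated, from 1306 to 510 for Y15 plus lapatinib against lapatinib, from 447 to 22 for the interaction of Y15 and lapatinib. With 1 array left out in turn, members called ran from 1 to 9 for Y15 against untreated (4 with all arrays), 1 to 3 for Y15 plus lapatinib against lapatinib (7 with all arrays), 3 to 5 for PF04554878 plus lapatinib against PF04554878 (7 with all arrays), 0 to 6 for the interaction of Y15 and lapatinib (2 with all arrays). Genes called ran from 136 to 1171 for Y15 against untreated (629 with all arrays), 299 to 620 for Y15 plus lapatinib against lapatinib (1306 with all arrays), 420 to 584 for PF04554878 plus lapatinib against PF04554878 (1027 with all arrays), 30 to 999 for the interaction of Y15 and lapatinib (447 with all arrays). PDK3 for PF04554878 against untreated turned to 0.44 (adjusted p = 0.00061) with the mean of the kept probes. PDK3 for PF04554878 plus lapatinib against untreated turned to 0.23 (adjusted p = 0.0347) with the mean of the kept probes. PDK3 for PF04554878 against Y15 turned to 0.44 (adjusted p = 0.000555) with the mean of the kept probes. ALDOA for Y15 plus lapatinib against untreated ran from -0.48 without untreated replicate 2 to 0.42 without untreated replicate 1, on either side of -0.03 ± 0.22, and none of these was called with all arrays and the brightest probe. The cause of these shifts was not tested, beyond fewer arrays or genes where a fit has fewer. The block is such a fit for Y15 plus lapatinib, since number 3 is on 1 array only and that array then leaves the group's mean. Same-numbered arrays correlated in their deviations with r from -0.33 to 0.13 over 10 pairs of groups, and Y15 plus lapatinib carries numbers 1 and 3. With 2 arrays a group these values cannot decide whether same-numbered samples were handled together, and no label says so. Dim members, with ENO2, LDHB, VEGFA, ANGPTL4 and ANKRD37 above background on part of the arrays, have compressed changes.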
